A study of Mus musculus with 9 samples.

Results

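The 10 genes described here encode the classical MHC class I molecule of mouse cells, the complex that loads it with peptide, and its transcriptional regulator Nlrc5. They were taken by name, whatever their level: the heavy chains H2-K1 and H2-D1, the light chain B2m, the transporter subunits Tap1 and Tap2, tapasin (Tapbp) and its relative Tapbpl, the peptidase Erap1, the disulfide isomerase Pdia3, and Nlrc5. These genes, and the lists of related genes below, were chosen with earlier results of these data known. All 10 were present in the deposited files among 53458 genes, and all 10 passed the filter on low counts, as did 24133 genes in all. RNA came from conventional type 1 dendritic cells (cDC1) of peri-pancreatic lymph nodes of mice, the nodes that lie next to the pancreas. The 9 libraries formed 3 groups of 3 by the state of the pancreas beside the node: Healthy, PanIN (short for pancreatic intraepithelial neoplasia, a lesion that precedes carcinoma) and Tumor. The series title names KPC, a mouse line that develops tumors of the pancreas; the alleles, strain, age and sex of the animals, and whether the Healthy mice carry any allele of that line, are not stated by the labels. Nor do they say whether a library came from 1 animal or from a pool, so the p-values below reflect differences among libraries that could be technical alone.

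MHC class I molecules carry short peptides from inside the cell to its surface, where cytotoxic T cells read them. Peptides cut by the proteasome are pumped into the endoplasmic reticulum by the Tap1 and Tap2 transporter, trimmed by Erap1, and fitted into the heavy chain and B2m by the peptide-loading complex, in which tapasin bridges the transporter and the empty molecule and Pdia3 (ERp57) works with it. Nlrc5 is an interferon-inducible member of the NLR family that acts in the nucleus on the promoters of class I genes, as Ciita does on those of class II. In cDC1 the same machinery also presents antigen taken up from other cells, called cross-presentation.

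The libraries held 32150281 to 68934430 estimated counts. The value of a gene is the sum over its transcripts. Levels below are counts per 1000000 counts (CPM) with TMM factors, which set the libraries to a common scale and compare a gene between libraries. TPM also divides by transcript length and is used to compare genes with each other. The cDC1 marker list was abundant in every library, with a summed level of 3811 to 13156 CPM in Healthy, 4956 to 9165 CPM in PanIN and 4106 to 7137 CPM in Tumor libraries, and all 11 of its genes were detected. The list of mature dendritic cell markers, 8 genes, summed to 6680, 938 and 3220.5 CPM in Healthy 1, 2 and 3, to 3205 to 7603 CPM in PanIN and to 6916 to 12998 CPM in Tumor libraries. Ccr7, the receptor by which dendritic cells migrate to nodes, stood at 57.2 CPM in Healthy 2 and at 419 to 2599 CPM in the other 8 libraries. Among the other lists, macrophage and monocyte markers summed to 367, 731 and 394 CPM in the Healthy libraries. They summed to 276 to 455 CPM in PanIN and 211 to 322 CPM in Tumor libraries, where they lay below the Healthy ones. In Tumor 1 they stood at 239 CPM, below the plasma cell, T cell and plasmacytoid dendritic cell lists. The plasmacytoid list also passed them in PanIN 1 and Tumor 3. Plasmacytoid dendritic cell markers summed to 200.5 to 346 CPM over all 9 libraries. The cDC2 markers summed to 42.5 to 115 CPM in 8 libraries and 159.9 CPM in Healthy 3, where Sirpa alone stood at 113 CPM. Genes within a list were uneven. In the plasmacytoid list Bst2 stood at 47.5 to 99.5 CPM and Siglech at most at 5.85 CPM, in PanIN 2. In the macrophage and monocyte list Lyz2 stood at 58.7 to 259.8 CPM and Adgre1 at 3.04 to 7.39 CPM. A list sum is thus not by itself evidence that cells of that type were present. B cell markers reached 332 CPM in PanIN 2 and at most 100.4 CPM elsewhere. T cell markers reached 248 CPM in Healthy 1, 219 CPM in PanIN 1 and 356 CPM in Tumor 1, which share a code in their titles. Plasma cell markers summed to 391, 246 and 164 CPM in Tumor, 159, 226 and 193 CPM in PanIN and 107 to 158 CPM in Healthy libraries. PanIN 2 and PanIN 3 thus lay above Tumor 3, where Xbp1 alone stood at 114 CPM and Jchain at 9.85 CPM. Epithelial and acinar markers reached 86.2 CPM in Tumor 1. Neutrophil markers summed to 36.6 CPM in PanIN 2 and 25.2 CPM in PanIN 3, against 2.59 to 9.80 CPM in the other 7 libraries; of the 10 genes of this list Elane was at 0 in all 9 libraries, and the 6 that passed the filter were all positive in PanIN against Healthy. The part of these differences in the results below was not tested, and in bulk samples fewer cells of a type and less RNA per cell cannot be told apart.

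Class I promoters are known for a block of short elements that the regulators read: an upstream part with a kB motif and an interferon response element, and a downstream part with the X2 and Y boxes, on which Nlrc5 acts. RefSeq promoter windows on GRCm38.p6, 250 bases before to 50 bases after the annotated start, were at hand for 7 of the 10 genes. Tap2, Tapbpl and Nlrc5 had none in the table. Shown here are the heavy chains and B2m, which form the molecule itself, with Tap1 from the transporter and Erap1 from the trimming step for comparison. Each is printed 5′ to 3′ on the strand of the gene, with matches to 4 motifs in capitals. The motifs are TGACG, the core of the X2 box; CCAAT, the core of the Y box, which reads ATTGG on the other strand; AANNGAAA, the core of an interferon element; and the kB motif. All were searched on both strands.
H2-K1, minus strand, chr17:34000298-34000597: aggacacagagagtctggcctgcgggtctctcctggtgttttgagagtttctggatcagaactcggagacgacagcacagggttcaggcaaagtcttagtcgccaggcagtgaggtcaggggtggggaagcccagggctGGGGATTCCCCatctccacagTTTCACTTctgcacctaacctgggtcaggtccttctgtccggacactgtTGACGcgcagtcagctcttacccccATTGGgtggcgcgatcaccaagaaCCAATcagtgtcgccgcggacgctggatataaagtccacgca
H2-D1, plus strand, chr17:35262844-35263143: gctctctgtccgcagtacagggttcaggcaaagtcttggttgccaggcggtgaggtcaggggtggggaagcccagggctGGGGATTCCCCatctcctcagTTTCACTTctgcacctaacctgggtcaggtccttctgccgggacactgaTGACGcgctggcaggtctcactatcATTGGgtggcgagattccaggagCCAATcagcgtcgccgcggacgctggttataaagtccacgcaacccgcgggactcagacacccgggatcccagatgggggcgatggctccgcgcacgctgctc
B2m, plus strand, chr2:122147437-122147736: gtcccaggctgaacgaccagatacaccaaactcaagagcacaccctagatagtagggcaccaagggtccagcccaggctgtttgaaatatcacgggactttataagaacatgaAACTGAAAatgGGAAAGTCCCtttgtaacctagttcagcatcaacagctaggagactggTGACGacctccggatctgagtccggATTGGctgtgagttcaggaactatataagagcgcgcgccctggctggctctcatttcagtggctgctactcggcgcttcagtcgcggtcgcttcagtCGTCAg
Tap1, plus strand, chr17:34187306-34187605: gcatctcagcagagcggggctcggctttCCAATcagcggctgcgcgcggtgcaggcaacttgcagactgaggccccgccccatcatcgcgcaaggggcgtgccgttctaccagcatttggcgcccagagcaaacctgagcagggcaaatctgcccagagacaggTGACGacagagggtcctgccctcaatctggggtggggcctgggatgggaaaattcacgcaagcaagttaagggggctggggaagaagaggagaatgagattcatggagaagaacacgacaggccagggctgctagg
Erap1, plus strand, chr13:74639603-74639902: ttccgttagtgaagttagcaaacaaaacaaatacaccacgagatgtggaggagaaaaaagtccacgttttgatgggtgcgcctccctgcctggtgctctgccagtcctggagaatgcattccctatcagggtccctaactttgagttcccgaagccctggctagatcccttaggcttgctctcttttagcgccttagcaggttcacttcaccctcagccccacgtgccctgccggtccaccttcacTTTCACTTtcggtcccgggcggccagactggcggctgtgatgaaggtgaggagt

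The windows of H2-K1, H2-D1 and B2m each held TGACG followed 20 bases later by ATTGG, an arrangement absent from the other 4 windows. Among 32851 RefSeq windows of the same length, 0.7427% held TGACG followed by ATTGG at a gap of 10 to 30 bases on either strand. TGACG alone was in 20.81% of windows, CCAAT in 37.41%, AANNGAAA in 23.92% and the kB motif in 11.17%, so a single match carries little. The upstream elements lay in different order: in H2-K1 and H2-D1 the kB motif came first and the interferon core after it, and in B2m the interferon core lay at -137 to -130 and the kB motif at -126 to -117, counted from the start with -1 as the base before it. The windows of H2-K1 and H2-D1 were near copies, with 206 of 227 aligned bases identical (90.7%). Positions differ because the annotated starts differ: TGACG began at -41 in H2-K1 and at -101 in H2-D1. B2m and Erap1 held the interferon core with GA before it, a longer element that is also a match to AANNGAAA; it occurs in 3.443% of windows, and in Erap1 it overlaps the annotated start. Tap1 held TGACG and CCAAT far from each other, at -86 and -222, and Tapbp held CCAAT alone. Pdia3 held TGACG and CCAAT pairs in another order, and no window held TTCNNNGAA, a STAT-type motif found in 8.298% of windows. A match is a run of letters and not evidence that a factor binds there.

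**Figure D1:**
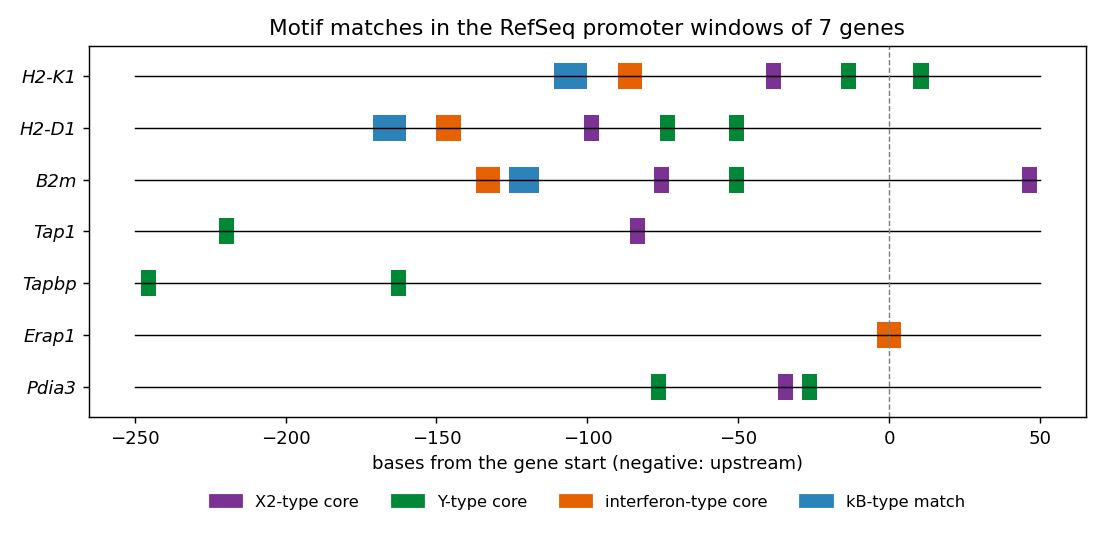
Positions of motif matches in the RefSeq promoter windows of 7 genes, in bases from the annotated start on the x axis, with a dashed line at the start. H2-K1, H2-D1 and B2m each hold an X2-type core (TGACG) with a Y-type core (CCAAT, here as ATTGG) 20 bases after it; the other 4 genes hold no such pair.

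Of the 10 genes, 5 lie within or beside the MHC region of chromosome 17 on GRCm38. From low to high coordinates these are Tapbp (ENSMUSG00000024308, chr17:33915899-33929292, plus strand), H2-K1 (ENSMUSG00000061232, chr17:33996017-34000347, minus strand), Tap1 (ENSMUSG00000037321, chr17:34187553-34197225, plus strand), Tap2 (ENSMUSG00000024339, chr17:34203527-34216321, plus strand) and H2-D1 (ENSMUSG00000073411, chr17:35262730-35267499, plus strand). Outside it are Pdia3 (ENSMUSG00000027248, chr2:121413775-121438687, plus strand) and B2m (ENSMUSG00000060802, chr2:122147686-122153083, plus strand). Tapbpl (ENSMUSG00000038213, chr6:125223933-125231860, minus strand) and Erap1 (ENSMUSG00000021583, chr13:74639568-74693201, plus strand) lie on chromosomes of their own, as does Nlrc5.

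B2m and the heavy chains were among the most abundant transcripts of these cells. By mean TPM over the 9 libraries, B2m ranked 30, H2-D1 98 and H2-K1 104 of 53458 genes. Pdia3 ranked 351, Tapbp 399, Tap1 400 and Tap2 611. Nlrc5 ranked 1555, Tapbpl 1867 and Erap1 1907. B2m averaged 2800.5 ± 895 TPM in the Healthy, 3911 ± 970.3 TPM in the PanIN and 4882 ± 723 TPM in the Tumor libraries (SD, n = 3 each). Nlrc5 averaged 19.9 ± 14.0 TPM in the Healthy, 87.3 ± 30.7 TPM in the PanIN and 67.0 ± 34.2 TPM in the Tumor libraries. Together the 10 genes took 0.609 ± 0.182% of all TPM in Healthy, 0.863 ± 0.0954% in PanIN and 0.945 ± 0.145% in Tumor libraries. Neighbours in the order lay close: the ratio of H2-K1 to H2-D1 in TPM ran from 0.715 in Healthy 2 to 1.07 in Healthy 1, and so crossed 1. Values are for the reference alleles; class I heavy chains are highly polymorphic and the strain is not given, so reads from another allele may be lost or assigned elsewhere. Of the 31-base words in the longest protein-coding transcript, 23.35% for H2-K1 and 27.46% for H2-D1 also occurred in transcripts of other genes, 16.93% and 12.93% in each other, and reads there are split by a model. B2m, Pdia3 and Nlrc5, the last read in its transcript Nlrc5-207, had 0 such words.

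The heavy chains H2-K1 and H2-D1 were highest in the Tumor libraries. H2-K1 stood at 3419, 2128 and 1649 CPM in Healthy 1, 2 and 3, at 3514, 2775 and 2478 CPM in PanIN 1, 2 and 3, and at 4495, 3269 and 4088 CPM in Tumor 1, 2 and 3. Healthy 1 overlapped both other stages, and the ranges of Tumor and PanIN met only through PanIN 1, which lay above Tumor 2. H2-D1 stood at 3744, 3452 and 2144 CPM in the Healthy libraries, at 3680.3, 3169 and 2810.2 CPM in the PanIN libraries, and at 4679.8, 3839 and 4305 CPM in the Tumor libraries. All 3 Tumor libraries lay above all 6 others for H2-D1. B2m, the invariant light chain without which heavy chains do not reach the surface, stood at 3252, 2227 and 1936 CPM in Healthy, at 3946, 2421 and 2118 CPM in PanIN, and at 5550.5, 4009 and 3827 CPM in Tumor libraries. Tumor 1 was the highest library for B2m, and PanIN 1 fell within the Tumor range. For these 3 genes the library of each stage that shares the title code was the highest of its stage.

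The transporter genes differed less between stages than within Healthy. Tap1 stood at 650.5, 808 and 436 CPM in Healthy, at 684, 743 and 857 CPM in PanIN, and at 769, 830.2 and 873 CPM in Tumor libraries. Tap2 stood at 381, 447 and 230.2 CPM in Healthy, at 407, 431 and 491 CPM in PanIN, and at 433, 439 and 494 CPM in Tumor libraries. Healthy 3 was the lowest library for both genes, and Healthy 2 fell inside the range of the Tumor libraries for both. The TPM of Tap1 over that of Tap2 gave 1.60 ± 0.0767 for Healthy, 1.44 ± 0.151 for PanIN and 2.11 ± 0.205 for Tumor libraries (SD, n = 3 each), but this ratio rests on how counts were split among short transcripts, described below.

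Tapasin and its relative were highest in the Tumor libraries. Tapbp stood at 839.5, 677 and 409 CPM in Healthy, at 930.4, 839.6 and 666 CPM in PanIN, and at 1187, 975 and 955 CPM in Tumor libraries. All 3 Tumor libraries lay above all others. Tapbpl, which encodes TAPBPR, a peptide editor that works outside the loading complex, stood at 228, 128 and 122 CPM in Healthy, at 238, 203 and 132 CPM in PanIN, and at 267, 236 and 246 CPM in Tumor libraries. PanIN 1 reached the Tumor range for Tapbpl, and the Healthy libraries did not.

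Erap1 and Pdia3 followed another pattern, set by Healthy 2. Erap1, which trims peptides at their amino end, stood at 122, 222 and 106 CPM in Healthy, at 129.8, 121 and 136 CPM in PanIN, and at 128, 125 and 119 CPM in Tumor libraries. Pdia3, which helps form the disulfide bonds of new glycoproteins, stood at 686, 1443 and 661 CPM in Healthy, at 729.8, 657 and 962 CPM in PanIN, and at 702, 943 and 753 CPM in Tumor libraries. Healthy 2 was the highest of all 9 libraries for both genes, and the PanIN and Tumor libraries overlapped. The coefficient of variation over the 9 libraries ran from 18.4% for Tap1 to 36.7% for B2m among the 9 genes other than Nlrc5, against a median of 23.3% over the 5365 genes that averaged 5 log2 CPM or more.

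Nlrc5 varied most, with a coefficient of variation of 52.2% and a 6.99-fold range. It stood at 157, 108 and 57.7 CPM in Healthy, at 255, 258 and 404 CPM in PanIN, and at 258, 141 and 365 CPM in Tumor libraries. All 3 PanIN libraries lay above all 3 Healthy libraries, and Tumor 2 lay within the Healthy range. Over the 10 genes, Healthy 3 was the lowest library for 9 and PanIN 2 for Pdia3; Tumor 1 was the highest for 5, Tumor 3 and Healthy 2 for 2 each and PanIN 3 for Nlrc5.

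**Figure D2:**
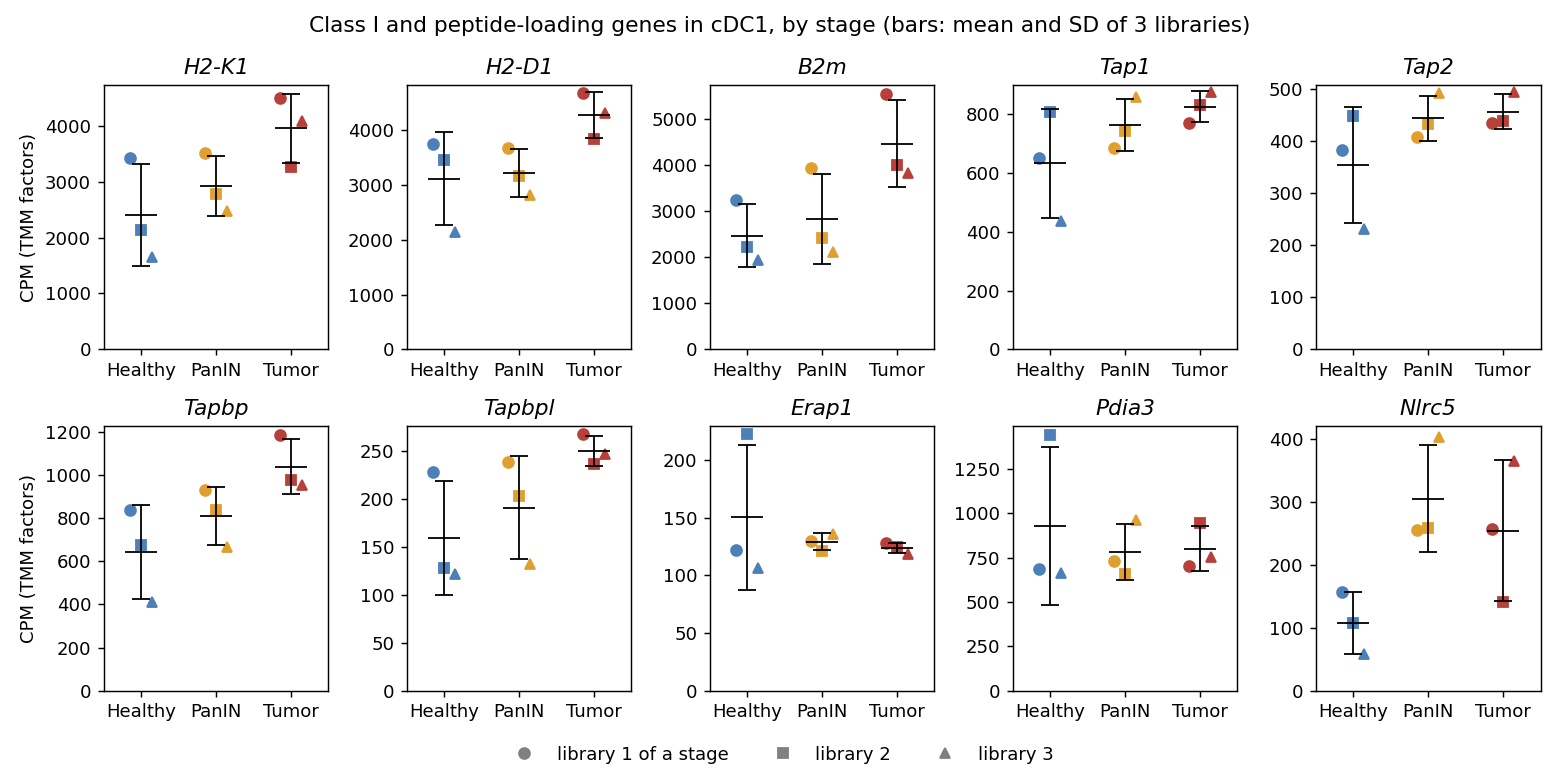
CPM (with TMM factors, y axes from 0) of the 10 genes by stage (x axis); symbols are libraries 1 to 3 of a stage, and black bars are the mean and SD of 3 libraries. H2-D1 and Tapbp have all 3 Tumor libraries above the other 6, Nlrc5 has all 3 PanIN libraries above the Healthy ones, and Healthy 2 stands highest for Erap1 and Pdia3.

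In Tumor against Healthy, the molecule and its tapasin-type chaperones had higher means, and trimming and oxidation genes did not. Nlrc5 averaged 255 ± 112 CPM in Tumor and 108 ± 49.8 CPM in Healthy libraries (SD, n = 3 each), a log2 fold change of 1.24 (SE 0.40). B2m averaged 4462 ± 947 CPM in Tumor and 2471 ± 691 CPM in Healthy libraries (log2 fold change 0.85, SE 0.35). H2-K1 averaged 3951 ± 624 CPM in Tumor and 2398 ± 916 CPM in Healthy libraries (0.72, SE 0.34), and H2-D1 4275 ± 421 CPM in Tumor and 3113 ± 852 CPM in Healthy libraries (0.46, SE 0.31). Tapbp had a log2 fold change of 0.69 (SE 0.30) and Tapbpl of 0.65 (SE 0.30). Tap1 and Tap2 had 0.38 and 0.37 (SE 0.27 each), while Erap1 had -0.28 (SE 0.27) and Pdia3 -0.22 (SE 0.34).

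By the quasi-likelihood test of edgeR, with p-values adjusted by the Benjamini-Hochberg method over all 24133 genes at a threshold of 0.05, 0 of the 10 were called in Tumor against Healthy, where 6 genes (0.0249%) were. The smallest adjusted p among the 10 was 0.168 for Nlrc5, followed by 0.237 for B2m and 0.256 for Tapbp (edgeR). At an unadjusted p under 0.05, 4 of the 10 were higher (Nlrc5, B2m, Tapbp and Tapbpl) and 0 lower, against 6.82% of all genes higher and 11.0% lower. The Tumor and Healthy libraries did not overlap for 4 genes, all higher in Tumor (H2-D1, B2m, Tapbp and Tapbpl), against 9.02% of all genes higher and 9.06% lower. The median log2 fold change of the 10 was 0.55, with 8 positive; it was -0.11 over all genes tested and 0.09 over those averaging 5 log2 CPM or more, where the 10 genes lie. DESeq2 called Nlrc5 (adjusted p = 0.0402), as it did 8.73% of its genes, and so did edgeR without the low-count filter (adjusted p = 0.0338), which called 2.82%. Without Healthy 2 and Healthy 3 together the log2 fold change of Nlrc5 was 0.69, that of B2m 0.45, of H2-K1 0.21, of Tapbp 0.30 and of Tapbpl 0.13, and without Tumor 3 that of Nlrc5 was 0.89. In the fit on counts rebuilt from TPM, the log2 fold change of Tapbp was -0.04. Mature dendritic cell markers moved with these values: all 8 had positive log2 fold changes in Tumor against Healthy, with a median of 1.24, and their part in the class I values was not tested.

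In PanIN against Healthy, Nlrc5 had the largest log2 fold change of the 10. It averaged 306 ± 84.8 CPM in PanIN and 108 ± 49.8 CPM in Healthy libraries (SD, n = 3 each), a log2 fold change of 1.51 (SE 0.41). Genes whose promoters it is known to act on had smaller values: H2-K1 had a log2 fold change of 0.28 (SE 0.34), H2-D1 of 0.05 (SE 0.31) and B2m of 0.19 (SE 0.35). Tapbp had 0.34 (SE 0.30), Tap2 0.33 (SE 0.27), Tap1 0.27 (SE 0.27) and Tapbpl 0.26 (SE 0.30). Erap1 had -0.22 (SE 0.27) and Pdia3 -0.25 (SE 0.34).

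In PanIN against Healthy edgeR called 0 of 24133 genes (0.0%) after adjustment, and hence 0 of the 10; the adjusted p of Nlrc5 was 0.395. At an unadjusted p under 0.05, Nlrc5 was the 1 gene of the 10, against 4.82% of all genes higher and 5.65% lower. Nlrc5 was also the 1 gene of the 10 whose groups did not overlap, against 7.4% of all genes higher and 4.81% lower. The median of the 10 was 0.27 with 8 positive, beside -0.10 over all genes tested and 0.04 over genes of at least 5 log2 CPM. Nlrc5 was called by DESeq2 (adjusted p = 0.0459), among 0.855% of its genes, by edgeR without that filter (adjusted p = 0.0314), among 0.333%, and by limma-voom with sample weights (adjusted p = 0.0367), among 14.1%. Its log2 fold change was 0.96 without Healthy 2 and Healthy 3 together, and 0.95 in the limma-voom fit, whose weights were 0.172 and 0.269 for those libraries. H2-K1, H2-D1, B2m and Tapbpl had negative log2 fold changes in both of these fits, between -0.18 and -0.31.

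In Tumor against PanIN, B2m and the heavy chains had higher means and Nlrc5 did not. B2m averaged 4462 ± 947 CPM in Tumor and 2828 ± 979 CPM in PanIN libraries (SD, n = 3 each), with a log2 fold change of 0.66 (SE 0.35). H2-K1 had 0.44 (SE 0.34), H2-D1 0.41 (SE 0.31), Tapbpl 0.39 (SE 0.30) and Tapbp 0.36 (SE 0.30). The remaining 5 lay between -0.26 for Nlrc5 (SE 0.40) and 0.11 for Tap1. After adjustment edgeR called 0 of the 10 and 3 of 24133 genes (0.0124%), DESeq2 and limma-voom called 0 of the 10 too, and each of the 10 had an adjusted p of 0.9999 (edgeR). At an unadjusted p under 0.05, 0 of the 10 were higher or lower, against 2.02% and 2.52% of all genes. H2-D1 and Tapbp were higher in Tumor with no overlap, against 8.33% of all genes higher and 7.26% lower. The median of the 10 was 0.24 with 8 positive, beside -0.05 over all genes. Over all 3 stages at once, edgeR called 0 of the 10 and 5 genes (0.0207%); Nlrc5 had an unadjusted p of 0.0084 (edgeR), the 1 gene of the 10 under 0.05, where 13.4% of all genes were. For this question DESeq2 (6.81% of its genes called) and edgeR with no filter (2.32%) called Nlrc5, and limma-voom (13.5%) called B2m.

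**Figure D3:**
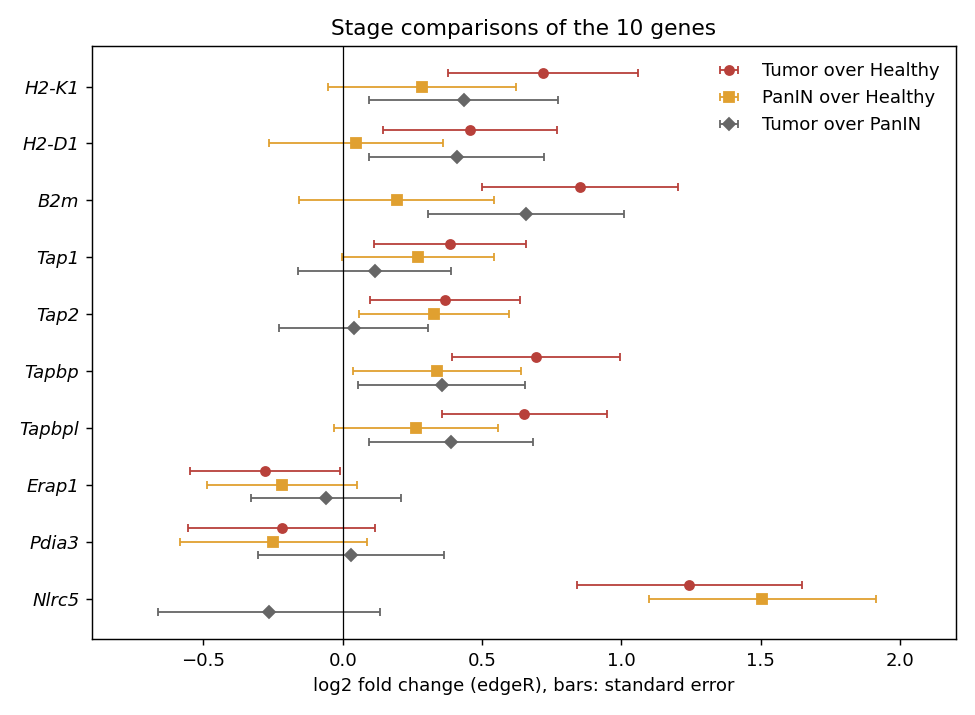
Log2 fold changes of the 10 genes (x axis) from edgeR with their standard errors, for Tumor over Healthy (circles), PanIN over Healthy (squares) and Tumor over PanIN (diamonds). Nlrc5 stands at 1.24 and 1.51 over Healthy and at -0.26 in Tumor over PanIN, and B2m at 0.85 in Tumor and 0.19 in PanIN over Healthy.

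The mix of transcripts counted as Nlrc5 had different means by stage, though no test of it below passed after adjustment. Nlrc5 (ENSMUSG00000074151, GRCm38 chromosome 8, 94434356 to 94527272, plus strand) has 9 transcripts in the files. Nlrc5-201 is a protein-coding form of 49 exons and 6945 bases. Nlrc5-207, of 7578 bases, is also protein-coding. In the fit over transcripts described below, Nlrc5-207 stood at 69.6 CPM in Healthy 2, where Nlrc5-201 stood at 31.7 CPM. Nlrc5-203 is annotated as a retained intron: 2 exons and 1727 bases at the 3′ end of the gene (94525067 to 94527268), of which 1374 are shared with Nlrc5-201 and 353 are not. Nlrc5-203 stood at 31, 6.64 and 10.3 CPM in Healthy, at 87.1, 49.6 and 91.1 CPM in PanIN, and at 143, 68.8 and 177 CPM in Tumor libraries. The Healthy libraries lay below all others. It held 14.6 ± 7.36% of Nlrc5 counts in Healthy, 25.3 ± 7.84% in PanIN and 50.9 ± 4.03% in Tumor libraries (SD, n = 3 each), and all 3 Tumor libraries (48.5% to 55.6%) lay above all 6 others (6.17% to 34.2%). The protein-coding transcripts together stood at 113, 97.8 and 43.3 CPM in Healthy, at 149, 190.4 and 270.3 CPM in PanIN, and at 102, 59.7 and 164 CPM in Tumor libraries. Summed this way, PanIN lay above Healthy without overlap, and Tumor and Healthy overlapped.

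With only protein-coding transcripts summed to genes, an alternative chosen after these shares were seen, the log2 fold change of Nlrc5 was 0.44 in Tumor against Healthy (SE 0.41, edgeR adjusted p = 0.591), against 1.24 with all transcripts. In PanIN against Healthy it was 1.34 (SE 0.42, edgeR adjusted p = 0.552), against 1.51. In Tumor against PanIN it was -0.90 (SE 0.42, edgeR adjusted p = 0.674), against -0.26. An edgeR fit over 66598 transcripts, also chosen after seeing the data, gave Nlrc5-203 a log2 fold change of 2.97 in Tumor against Healthy (SE 0.62, adjusted p = 0.148) and of 2.16 in PanIN against Healthy (SE 0.60, adjusted p = 0.605). No Nlrc5 transcript was called, where 0.189% of transcripts were in Tumor against Healthy and 0.0045% in PanIN against Healthy; at an unadjusted p under 0.05 these shares were 5.74% and 4.72% for higher transcripts. That fit does not carry the error of splitting reads between transcripts that share sequence. Retained-intron transcripts of all genes held 4.79%, 3.61% and 4.74% of counts in Healthy 1, 2 and 3, 5.76% to 6.93% in PanIN and 5.32% to 6.56% in Tumor libraries, so this class as a whole was also lowest in Healthy. Its part in the Nlrc5 values was not tested.

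**Figure D4:**
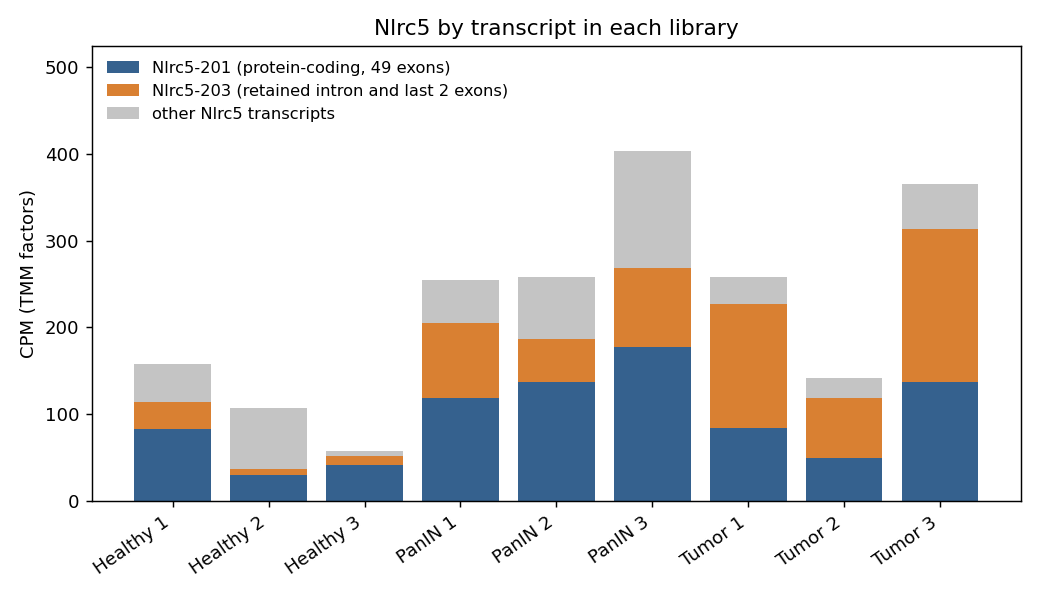
CPM of Nlrc5 in each library (x axis), stacked by transcript: Nlrc5-201 (blue), Nlrc5-203 (orange) and the other Nlrc5 transcripts (grey). Nlrc5-203 reaches 143, 68.8 and 177 CPM in the Tumor libraries and at most 31 CPM in the Healthy ones, and Nlrc5-201 is highest in PanIN 3.

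The share of retained-intron transcripts differed from gene to gene. For Tap1, H2-K1, H2-D1, Erap1 and Tapbp its mean was highest in PanIN, but the PanIN and Tumor libraries overlapped. For H2-K1 the highest library was Tumor 3, at 9.97%, against 9.14% in PanIN 3. Retained-intron transcripts held 13.1 ± 2.63% of Tap1 counts in Healthy, 27.4 ± 5.89% in PanIN and 23.7 ± 3.65% in Tumor libraries (SD, n = 3 each), with no overlap between Healthy and the others. For H2-K1 these shares were 2.74 ± 1.29% in Healthy, 7.38 ± 1.53% in PanIN and 7.11 ± 2.54% in Tumor libraries. Those of H2-D1 were 1.85 ± 0.301% in Healthy, 3.82 ± 0.669% in PanIN and 2.63 ± 0.853% in Tumor libraries. In exact permutation tests of any difference among stages over 1680 assignments of the libraries, chosen after these shares were seen, the share of Nlrc5 had p = 0.00714, where the smallest possible is 0.00357. Adjusted over the 8 genes with such transcripts it was 0.0571, and 0.0686 for H2-K1, H2-D1, Tap1 and Tap2, all above 0.05, so that no gene passed. The share of Tapbp averaged 5.82% in the Healthy, 6.17% in the PanIN and 5.64% in the Tumor libraries (exact permutation p = 0.85, unadjusted), and that of Pdia3 ran the other way from Nlrc5, with 0.992% in Healthy, 0.711% in PanIN and 0.194% in Tumor libraries. Tap2 was a case of its own: Tap2-202, labelled a retained intron but sharing 2399 of its 2561 bases with the coding Tap2-201, held 84.5% of Tap2 counts, so a sum over coding transcripts leaves out most of this gene.

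Levels in TPM depended on very short transcripts. Tap2-205, of 344 bases, held 3.13% of Tap2 counts and 44.0% of its TPM, and H2-D1-203, of 391 bases, held 4.12% of H2-D1 counts and 36.2% of its TPM. Tapbp-203, of 413 bases, held 5.12 ± 2.02% of Tapbp counts in Healthy, 4.12 ± 2.12% in PanIN and 0.125 ± 0.216% in Tumor libraries, with 0 counts in Tumor 1 and Tumor 2. Erap1-203, of 354 bases, was at 0 in Tumor 1, Tumor 2 and PanIN 1. On the TPM scale Tapbp averaged 233 ± 107 in Healthy, 328 ± 51.8 in PanIN and 225 ± 25.0 in Tumor libraries, an order other than in CPM, and Erap1 60.9 ± 31.4 in Healthy, 54.8 ± 23.5 in PanIN and 26.1 ± 3.81 in Tumor libraries. B2m and Tapbpl have 1 transcript each in the files and are free of such splits. In TPM they kept the highest mean in Tumor: Tapbpl averaged 36.2 ± 16.1 TPM in Healthy, 52.3 ± 12.6 TPM in PanIN and 55.9 ± 6.21 TPM in Tumor libraries.

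Over the 9 libraries some pairs of the 10 genes had closely related levels. Of the 45 pairs of the 10 genes, 13 had a Pearson correlation of log2 CPM with an adjusted p under 0.05 by exact permutation of the libraries, with Benjamini-Hochberg adjustment over the 45 pairs. Computing all pairs was chosen after seeing the data. How often pairs of other genes reach such values was not tested, and Healthy 3 was the lowest library for 9 of the 10 genes. Tap1 and Tap2, the subunits of 1 transporter, had the closest relation, with r = 0.98 and rho = 0.98 (adjusted p = 3.1e-04, exact permutation, n = 9). H2-K1 was related to Tapbp (r = 0.95), Tapbpl (0.94), B2m (0.92) and H2-D1 (0.92), and H2-D1 to Tapbp (0.94). These kept r between 0.87 and 0.98 without Healthy 2 and Healthy 3, and between 0.88 and 0.93 within the 6 libraries outside the shared title code. B2m and Tap1 had r = 0.36, and H2-K1 and Tap1 r = 0.55, which was -0.08 without Healthy 2 and Healthy 3. Erap1 and Pdia3 had r = 0.89 (rho = 0.72), but r = 0.54 without Healthy 2 and Healthy 3, so this relation rests on those libraries. Libraries of 1 stage share whatever that stage changes, and all genes of a library share its scaling.

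**Figure D5:**
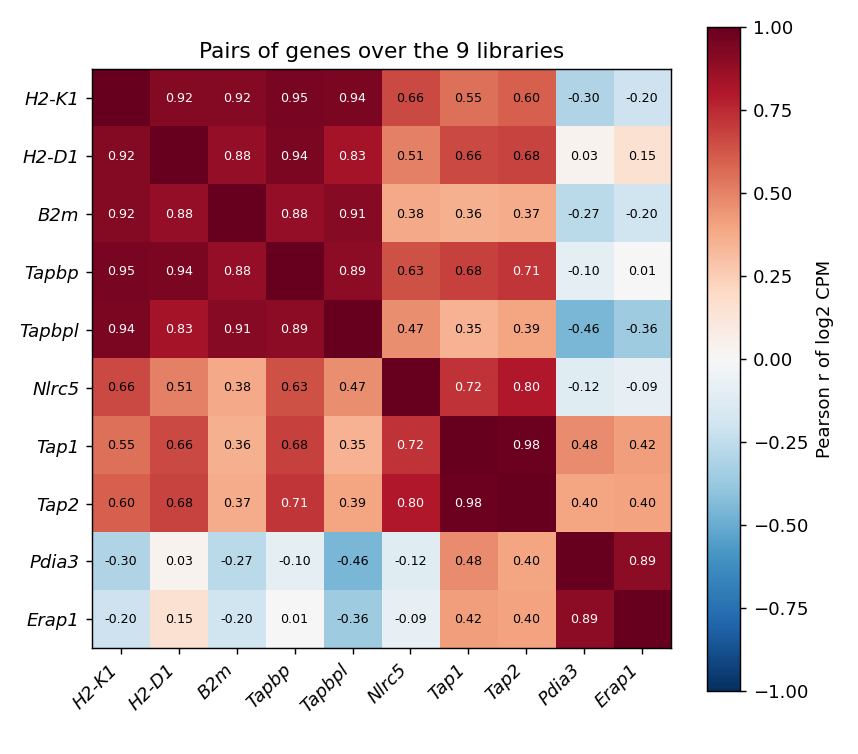
Pearson r of log2 CPM over the 9 libraries for each pair of the 10 genes (red positive, blue negative; the diagonal is 1). H2-K1, H2-D1, B2m, Tapbp and Tapbpl form a block with r from 0.83 to 0.95, Tap1 and Tap2 reach 0.98, and Erap1 and Pdia3 reach 0.89 with each other.

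Nlrc5 was set beside each of the other 9 genes, since it is the known regulator of several. Its log2 CPM had r = 0.80 with Tap2 (rho = 0.55; exact permutation p = 0.0109, adjusted 0.0982 over the 9 relations, n = 9). With Tap1 r was 0.72 (rho = 0.57; adjusted exact permutation p = 0.127), with H2-K1 0.66 (rho = 0.45; 0.147) and with Tapbp 0.63 (rho = 0.25; 0.147). With H2-D1 r was 0.51, with Tapbpl 0.47 and with B2m 0.38 (rho = 0.18, 0.43 and 0.15), and with Erap1 and Pdia3 it was -0.09 and -0.12. None of the 9 passed; adjusted over the 45 pairs instead, the relation with Tap2 had 0.0378 (exact permutation). Without Healthy 2 and Healthy 3, the libraries farthest from the median of Nlrc5, r was 0.74 with Tap2 and 0.49 with Tap1, but -0.12 with H2-K1, -0.24 with H2-D1 and -0.32 with B2m, so those relations rest on these libraries. Without Healthy 3 alone, r was 0.51 with Tap2 and 0.27 with Tap1, so these lean on that library too. Within the 6 libraries outside the shared title code r was 0.81 with Tap2, 0.72 with H2-K1 and 0.33 with B2m. On log2(TPM + 1), H2-K1 (r = 0.88, adjusted exact permutation p = 0.0205) and H2-D1 (r = 0.86, adjusted exact permutation p = 0.0129) passed. Per H2-K1 count, Nlrc5 stood at 4.39 ± 0.800% in Healthy, 11.0 ± 4.73% in PanIN and 6.33 ± 2.36% in Tumor libraries (SD, n = 3 each).

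The genes that feed peptide to this machinery were read in the same fit, none of them called. In the immunoproteasome list, the proteasome subunits and PA28 caps that interferon induces, all 5 genes had positive log2 fold changes in Tumor against Healthy (median 0.49) and in Tumor against PanIN (median 0.52), and the median was 0.00 in PanIN against Healthy. Psme2, a PA28 subunit, stood at 1137, 768 and 896 CPM in Tumor and 623, 411 and 393 CPM in Healthy libraries (log2 fold change 0.97, edgeR adjusted p = 0.168). Psme1 stood at 1157, 1023 and 982 CPM in Tumor and 772, 818 and 472 CPM in Healthy libraries, and Psmb8 at 1037, 1034 and 888 CPM in Tumor and 681, 873 and 549 CPM in Healthy libraries. These 3 genes had their Tumor libraries above the Healthy ones, as 9.02% of all genes had; the other 2 of the list, Psmb9 and Psmb10, overlapped, and Psmb9 was highest in Healthy 2, at 660.2 CPM. The 3 constitutive counterparts were positive too in Tumor against PanIN (median 0.57), with Tumor libraries above PanIN ones for all 3, as for 8.33% of all genes. Psmb6 averaged 148 ± 21.7 CPM in Tumor and 99.8 ± 12 CPM in PanIN libraries, Psmb5 averaged 120.2 ± 18.9 CPM in Tumor and 80.9 ± 5.14 CPM in PanIN libraries, and Psmb7 averaged 223 ± 12 CPM in Tumor and 169 ± 19.4 CPM in PanIN libraries (SD, n = 3 each).

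Of the other class I-type heavy chains, 19 of 20 were tested and H2-M9 was at 0 in all libraries. In Tumor against Healthy 16 of 19 were positive (median 0.56) and 7 had an unadjusted p under 0.05, all higher; in PanIN against Healthy 15 were positive (median 0.42), again with 7, all higher. Of all genes, 6.82% were higher at that p in Tumor against Healthy and 4.82% in PanIN against Healthy. H2-Q10 stood at 42, 45 and 48.5 CPM in PanIN and 23.8, 5.20 and 8.64 CPM in Healthy libraries (log2 fold change 1.85, edgeR adjusted p = 0.361). H2-M5 stood at 6.45, 17.5 and 26.4 CPM in PanIN and 4.30, 4.59 and 1.91 CPM in Healthy libraries (2.23, edgeR adjusted p = 0.329). H2-T24 went the other way in Tumor, with 4.61, 5.39 and 4.87 CPM in Tumor and 8.29, 20.8 and 14.5 CPM in PanIN libraries (-1.55, edgeR adjusted p = 0.9999). Some genes of this list, the H2-Q and H2-T genes above all, are paralogs with similar sequence, so that reads can be split between them and their counts are uncertain. Of this list, 2 of the 15 with a promoter window, H2-M3 and H2-Q7, held TGACG followed by ATTGG at a gap of 10 to 30 bases on either strand. The arrangement was not limited to class I genes. Of the list of MHC class II genes with Ciita, described below, 1 of the 7 with a window, H2-Aa, held it too.

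The chaperones of glycoprotein folding, which also handle class I chains, had mostly negative log2 fold changes, unlike tapasin. In this list of 10, 3 genes were positive in Tumor against Healthy (median -0.16) and 1 in PanIN against Healthy (median -0.19). Uggt1, the folding sensor, averaged 138 ± 11.5 CPM in Tumor and 209 ± 104 CPM in Healthy libraries, and the lectin Canx 348 ± 26.7 CPM in Tumor and 448 ± 143 CPM in Healthy libraries; Healthy 2 held the highest value of both, at 329 and 614 CPM. Sec61b, a subunit of the translocon, stood at 136 ± 29.6 CPM in Tumor and 89.2 ± 12.7 CPM in PanIN libraries (log2 fold change 0.61, edgeR adjusted p = 0.9999). Of the 8 other trimming peptidases, 4 were positive in Tumor and 5 in PanIN against Healthy. Lnpep (IRAP), an endosomal relative of Erap1 known from cross-presentation, averaged 164 ± 22.4 CPM in Healthy, 185 ± 32.9 CPM in PanIN and 137 ± 2.97 CPM in Tumor libraries. Blmh averaged 66.5 ± 10.4 CPM in Healthy, 53.7 ± 6.12 CPM in PanIN and 55.4 ± 2.86 CPM in Tumor libraries, and Rnpep 67.2 ± 26.2 CPM in Healthy, 89.4 ± 10.6 CPM in PanIN and 80.1 ± 13.5 CPM in Tumor libraries.

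Among 13 factors known from class I promoters, 9 were positive in Tumor against Healthy (median 0.15) and 11 in PanIN against Healthy (median 0.23). Irf1, which binds interferon elements, stood at 556, 337 and 617 CPM in Tumor and 356, 118 and 192 CPM in Healthy libraries (log2 fold change 1.18, edgeR adjusted p = 0.168). Rfxank, a subunit of the RFX complex of the X1 box, stood at 25.1, 22.7 and 25.3 CPM in Tumor and 15.9, 13.8 and 14.1 CPM in Healthy libraries (0.74, edgeR adjusted p = 0.168). Rela, the NF-kB subunit, stood at 179, 167 and 184 CPM in Tumor and 141, 94.3 and 79.7 CPM in Healthy libraries (0.75, edgeR adjusted p = 0.168). The Tumor libraries lay above the Healthy ones for Rfxank and Rela, and for Irf1 Healthy 1 passed Tumor 2.

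MHC class II and type I interferon genes set the class I values in context. The class II list with Ciita had 0 of 10 genes positive in Tumor against Healthy (median -0.17) and 2 in PanIN against Healthy (median -0.27). H2-Ab1 averaged 8119.5 ± 4734 CPM in Healthy, 6013 ± 1080.0 CPM in PanIN and 6615 ± 1566 CPM in Tumor libraries, and Ciita 494 ± 329 CPM in Healthy, 516 ± 185 CPM in PanIN and 378 ± 122 CPM in Tumor libraries; Healthy 2 was the highest library for both, at 13562 and 867 CPM. H2-Oa stood at 166, 217 and 169 CPM in Tumor and at 156, 336 and 135 CPM in Healthy libraries. The 16 interferon effectors were all positive in PanIN against Healthy (median 1.56) and all negative in Tumor against PanIN (median -1.01). At an unadjusted p under 0.05, 15 of the 16 were higher in PanIN against Healthy and 11 lower in Tumor against PanIN. The matching shares over all genes tested were 4.82% higher and 2.52% lower. This list, like the others, was chosen with earlier results of these data known, so its distance from these shares carries no test. After adjustment 0 of the 16 were called. Their smallest edgeR adjusted p was 0.236 for PanIN over Healthy and 0.667 for Tumor over PanIN. Isg15 averaged 15 ± 4.33 CPM in Healthy, 43.6 ± 4.67 CPM in PanIN and 42.3 ± 3.84 CPM in Tumor libraries. Oas3 averaged 6.23 ± 1.19 CPM in Healthy, 27.4 ± 11.0 CPM in PanIN and 9.58 ± 1.44 CPM in Tumor libraries, and Xaf1 9.15 ± 2.33 CPM in Healthy, 43.7 ± 15.6 CPM in PanIN and 21.6 ± 1.92 CPM in Tumor libraries. The means of Nlrc5 were 108 CPM in Healthy, 306 CPM in PanIN and 255 CPM in Tumor libraries. They stood in the order of these 3 genes, while those of B2m and H2-K1 were highest in Tumor. Not all 16 effectors had this order. In Tumor against Healthy 12 were positive and 4 negative (median 0.59), among the negative Ifit3 (-0.83) and Ifit2 (-0.80). The PanIN and Tumor comparisons share their Healthy libraries.

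By the likeness of patterns over the 9 libraries, among 5203 other protein-coding genes of at least 5 log2 CPM, the genes closest to the mean of the 10 scaled genes were Gemin7 (Pearson r = 0.99), Phc2 (0.98), Cmtm6 (0.98), Galnt12 (0.97) and Ptpn2 (0.97). That mean was -1.73 in Healthy 3, against -0.13 to 0.69 in the other 8 libraries, so the likeness rests mainly on Healthy 3. The genes closest to Nlrc5 were Prpf38b (r = 0.98), Ccdc82 (0.98) and Sepsecs (0.97). These were picked as the highest of many and carry no test.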

How the data were processed

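RNA of cDC1 was sequenced in 9 libraries; the RNA kit was a column kit for small samples and the library kit was directional, per the labels' protocols, and use of strand in quantification is not stated. Per the submitters' processing notes, Salmon and mm10 were used; the deposited tables give, per transcript, estimated counts and TPM that the authors made. Of 136288 transcripts, 136176 matched GENCODE M21 and were summed to 53458 genes (99.963% or more of every library's counts), and gene sums of the estimated counts were rounded. Genes were kept by edgeR's filterByExpr (minimum count 10, minimum total 15). One edgeR 4.0.16 quasi-likelihood fit (R 4.3.3, limma 3.58.1) over all 9 libraries, with stage alone as a term and TMM factors (0.83 to 1.19), gave all 3 comparisons at a Benjamini-Hochberg threshold of 0.05; its common biological coefficient of variation was 56.4%. The script was tested on simulated data. Single values used exact permutation; with 3 against 3 libraries it cannot go below 0.1 two-sided. Log2 CPM for correlations had a prior count of 2. Depth, 32150281 to 68934430 counts, was ample for these genes, so that spread between libraries and not counting error sets the precision.

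All 10 genes are described. From each list of related genes, those called in any comparison were to be named, and otherwise up to 3 with the smallest p over any stage; likeness named the 5 genes closest to the mean of the 10 and the 3 closest to Nlrc5, without predicted genes and antigen receptor segments, and transcripts were those with at least 5% of the TPM of their gene. The members and lists were chosen with earlier results of these data known. Replicates were numbered in accession order. Healthy 1, PanIN 1 and Tumor 1 share a title code. The alternative with a title code term only sets these libraries against all others. Each of the others has a code of its own, so that code and stage cannot be told apart there. Promoter windows came from RefSeq on GRCm38.p6 and were read with Python 3.11.15 (pandas 2.3.3, Biopython 1.88; figures with matplotlib 3.10.9). Alternatives included RLE factors, other filters, DESeq2 1.42.0, limma-voom, limma-trend on log2 TPM with a pseudocount of 1 or 0.1, and leaving out libraries.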

Additional observations from a re-analysis of the deposited data

How the results depend on the processing

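In the fit as reported, 0 of the 10 genes were called in any comparison. In PanIN against Healthy, 1 gene (Nlrc5) was called with no filter on low counts, by DESeq2 and by limma-voom; in Tumor against Healthy 1 (Nlrc5) with no filter and by DESeq2; over any stage 1 with no filter and by DESeq2 (Nlrc5) and 1 by limma-voom (B2m). Over the 22 alternatives Nlrc5 stayed positive in both comparisons with Healthy, between 0.95 and 2.29 (adjusted p 0.0314 to 0.948) in PanIN and between 0.44 and 1.84 (adjusted p 0.0338 to 0.636) in Tumor. B2m, H2-K1, H2-D1, Tap1 and Tapbpl stayed positive in Tumor against Healthy under all 22, and B2m between 0.45 and 1.10. Calls over all genes moved far more: 0 to 3409 in PanIN against Healthy, 1 to 2177 (without Healthy 2) in Tumor against Healthy, 0 to 37 in Tumor against PanIN and 0 to 3248 over any stage, against 0, 6, 3 and 5 as reported. limma-voom called 1986 genes in Tumor against Healthy and 0 of the 10. The cause of these differences was not tested.

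Directions turned as follows, as log2 fold changes. In PanIN against Healthy, without Healthy 2 and Healthy 3 together: H2-K1 -0.23, H2-D1 -0.22, B2m -0.20, Tapbp -0.049, Tapbpl -0.25, Erap1 0.079 and Pdia3 0.19. There limma-voom gave H2-K1 -0.20, H2-D1 -0.20, B2m -0.31, Tapbpl -0.18, Erap1 0.019 and Pdia3 0.034, and limma-trend gave Pdia3 0.13 on either TPM pseudocount. In Tumor against Healthy, Tap2 had -0.096 on counts rebuilt from TPM and -0.10 on log2(TPM + 1) and log2(TPM + 0.1), Tapbp had -0.036 on rebuilt counts, Erap1 0.018 without both Healthy libraries, and Pdia3 0.22 without them and 0.15 by limma-voom. In Tumor against PanIN, log2(TPM + 1) and log2(TPM + 0.1) gave Tap1 -0.26 and -0.26, Tap2 -0.81 and -0.81, Tapbp -0.53 and -0.54 and Pdia3 -0.56 and -0.56, rebuilt counts gave Tap2 -0.48, Tapbp -0.22 and Pdia3 -0.25, and protein-coding transcripts alone gave Tap2 -0.20. On log2(TPM + 1) the median of all genes was 0.11 for PanIN over Healthy and -0.16 for Tumor over PanIN.

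Leaving out 1 library at a time gave these ranges where a direction turned. In PanIN against Healthy: H2-D1 -0.14 to 0.21, B2m -0.13 to 0.45, Erap1 -0.38 to 0.18 and Pdia3 -0.42 to 0.22. In Tumor against Healthy: Erap1 -0.45 to 0.12 and Pdia3 -0.40 to 0.25, both positive only without Healthy 2. In Tumor against PanIN: Tap2 -0.025 to 0.12, Pdia3 -0.11 to 0.20 and Nlrc5 -0.62 to 0.027 (the last without Tumor 2).

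Of the 9 correlations with Nlrc5, 0 passed as reported, 2 on log2(TPM + 1), and 0 to 3 with 1 library left out (3 without PanIN 3). Without the 2 libraries farthest from the median of Nlrc5, r turned for H2-K1 (-0.12), H2-D1 (-0.24), B2m (-0.32), Tapbp (-0.31), Tapbpl (-0.46), Erap1 (0.32) and Pdia3 (0.073). With 1 library left out, r ran from -0.092 to 0.78 for H2-D1, from -0.57 to 0.77 for Erap1 and from -0.50 to 0.33 for Pdia3. No paired analysis over all libraries was possible, because only Healthy 1, PanIN 1 and Tumor 1 share a title code and the others each have their own.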
